A study of Mus musculus with 19 samples.

Results

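Chemokines are small secreted proteins that guide leukocyte movement, and the family described here comprises the mouse chemokines and their receptors in skin that develops basal cell carcinoma (BCC). Members were the genes whose symbol starts with Ccl, Cxcl, Cx3cl, Xcl, Ccr, Cxcr, Cx3cr, Xcr or Ackr followed by a digit, with at least 10 counts summed over all libraries. Of 18521 genes, 62 carried such a symbol and 61 met the count minimum, 38 ligands and 23 receptors, while Cxcl15 had 8 counts and was left out. A low-count filter kept 15760 genes for testing, among them 58 members, 37 ligands and 21 receptors. All mice were female and of 1 genotype, Ptch1+/- K14-CreER2 p53fl/fl, so every group, healthy mice included, carried 1 disrupted Ptch1 allele and floxed p53 alleles. The keratin 14 promoter drives a tamoxifen-dependent Cre, which limits the p53 deletion to keratin 14 expressing cells of the induced mice. The AFL group, 3 mice numbered 2, 7 and 11, had induced skin and 1 ablative fractional laser treatment at 5% density and 40 mJ per microbeam. The vismodegib group, mice 1, 6, 9 and 12, had induced skin and 8 applications of vismodegib, an inhibitor of the Hedgehog signal transducer Smoothened. The BCC group, mice 3, 4, 5 and 8, had induced skin with no further treatment, and the healthy group, mice 10, 13, 14, 15 and 16, was not induced. Induction meant 3 tamoxifen injections of 300 µg and an x-ray dose of 4 Gy, and skin was taken on day 4 per the labels. Sham-treated or vehicle-treated skin was not analysed here.

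Chemokine receptors are G protein-coupled receptors on leukocytes, and each leukocyte class carries a typical set of them. CXCR2 with its ligands brings neutrophils into damaged skin, CCR2 and CCR1 with theirs bring monocytes, and CXCR3 ligands are induced by interferons and attract T and NK cells. Other members are homeostatic: CCL27 is made by keratinocytes, CXCL12 by stromal cells, and atypical receptors (Ackr) bind chemokines without classical signalling. In skin, early neutrophil and monocyte recruitment after wounding is the setting in which the inflammatory members are best known.

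Levels are CPM, counts scaled to the TMM-adjusted library size, given per mouse in the mouse order above, and log2 fold changes come from edgeR's quasi-likelihood fit of all 16 mice. "Rose", "fell" and "changed" refer to a Benjamini-Hochberg adjusted p under 0.05 over all 15760 genes. Calls that ended in a fit with replicate numbers as a block are named in the last paragraph, not beside each member. The 19 libraries held 27185921 to 33556611 counts each. Trp53 had 31.5 to 44.9 CPM in AFL, 25.3 to 55.1 in vismodegib and 23.6 to 36.3 in BCC skin, against 94.0 to 143 in healthy skin, so every induced mouse was below every healthy one. Ptch1 had 24.1 to 76.4, 29.0 to 74.2 and 68.6 to 125 CPM in the induced groups, in the same order, and 28.0 to 80.6 in healthy skin. Several mice stood apart from their groups. Vismodegib mouse 9 had a TMM factor of 0.591, against 0.906 to 1.18 in the other mice, and a summed level of 8 neutrophil markers of 49296 CPM, against 2401 to 5354 in the other vismodegib mice. AFL mouse 11 had 2280 CPM for the same markers, against 91.2 and 196 in AFL mice 7 and 2. Growing hair markers summed to 19259 CPM in vismodegib mouse 6, against 63.7 to 121 in the other vismodegib mice, and to 14772 CPM in BCC mouse 3, against 79.2 to 213 in the other BCC mice. They summed to 20.9 to 552 CPM in AFL mice and 1441 to 37794 in healthy mice, and their part in the results was not tested. The labels give ages of 228 to 326 days for the induced mice, against 128 to 137 days for healthy ones, so age and induction cannot be told apart. Time since induction was 80 to 126 days in AFL, 109 to 137 in vismodegib and 130 to 144 in the untreated BCC mice.

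In AFL skin against BCC skin, 22 of the 58 members tested changed, 21 upward and 1 downward. They included the whole CXCR2 axis of neutrophil attraction, the monocyte ligands Ccl2, Ccl7, Ccl8 and Ccl12 with Ccr2, the CC ligands Ccl3, Ccl4, Ccl6 and Ccl9 with Ccr1, and the interferon-induced Cxcl10 with Cxcr3. By class, 13 ligands and 8 receptors rose, and the ligand Ccl21b fell. Over all genes tested, 7.75% changed in this comparison, 6.10% up and 1.65% down. The median log2 fold change was 0.77 over the 58 members and -0.04 over all genes. In 23 of 58 members (39.7%) every AFL mouse lay above every BCC mouse, which held for 11.5% of all genes. In 4 (6.90%) every one lay below, close to the 7.34% of all genes. Without AFL mouse 11, 10 members changed, all of them among the 22, including Ccl3, Ccl4, Ccl6, Ccl8, Ccl9, Ccr1, Cxcl2, Cxcl10 and Cxcr3, and the share of all genes was 3.75%. Markers of several cell types rose in the same comparison besides the neutrophil and macrophage lists given with their axes. All 5 endothelial markers rose, with sums of 194 to 449 CPM in AFL and 77.4 to 136 in BCC mice. Of the dendritic cell markers 3 of 7 rose (sums of 170.2 to 241 CPM in AFL and 46.7 to 81.9 in BCC mice), and of the mast cell markers 3 of 6 (336 to 653 CPM in AFL and 166 to 299.6 in BCC mice). A lymphatic endothelial marker (of 4) and the 1 tested B cell marker rose, a Langerhans cell marker (of 3) fell, and no muscle or growing hair marker changed. Their part in the results was not tested.

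In vismodegib skin against BCC skin, 19 members changed, 13 upward and 6 downward. Those that rose included the neutrophil receptors Cxcr1 and Cxcr2 with Cxcl1 and Cxcl5, the monocyte members Ccl6, Ccl7, Ccl8, Ccl9, Ccr1 and Ccr2, the stromal ligand Cxcl12 and the keratinocyte ligand Ccl20. Those that fell were Cxcr4, the CCR10 ligands Ccl27a and Ccl27b, and the lymphocyte-associated ligands Ccl1, Ccl5 and Xcl1. Over all genes tested, 17.0% changed, 8.03% up and 9.00% down, and the 6 of 58 members that fell are close to that background. The median log2 fold change was 0.56 over the members and 0.05 over all genes. In 8 of 58 members (13.8%) every vismodegib mouse lay above every BCC mouse, against 7.63% of all genes. In 5 (8.62%) every one lay below, close to the 8.74% of all genes. Of the same marker lists, 2 of 7 dendritic cell, 1 of 6 mast cell and 1 of 4 lymphatic endothelial markers rose against BCC skin and none of the 5 endothelial ones. Without vismodegib mouse 9, 12 members changed, all among the 19, and 11.2% of all genes. Without vismodegib mouse 6, 22 members changed, and 21.7% of all genes. With library size alone as the scaling, which moved the median of all genes by -0.35, 8 members rose and 7 fell, and 16.5% of all genes changed.

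Set directly against each other, AFL and vismodegib skin differed in 11 members, 9 higher in AFL skin (Ccl3, Ccl4, Ccl5, Ccl9, Cx3cr1, Cxcl2, Cxcl3, Cxcl10 and Cxcr4) and 2 lower (Ccl19 and Ccl20). Over all genes, 9.15% changed in this comparison, 6.69% up and 2.46% down, and the medians were 0.25 over the members and -0.06 over all genes. The groups did not overlap in 8 of 58 members higher in AFL mice (13.8%), close to the 13.0% of all genes. In 1 member (1.72%) all AFL mice were lower, against 9.24% of all genes. Leaving out a mouse gave 6 to 14 members. There were 6 without vismodegib mouse 1 (5.27% of all genes) and 7 without vismodegib mouse 12 (8.12%). Without AFL mouse 11 there were 8 (5.33% of all genes), 5 of the 11 and 3 others. The AFL and vismodegib comparisons with BCC skin share the 4 BCC mice, so their log2 fold changes are plotted side by side.

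**Figure D1:**
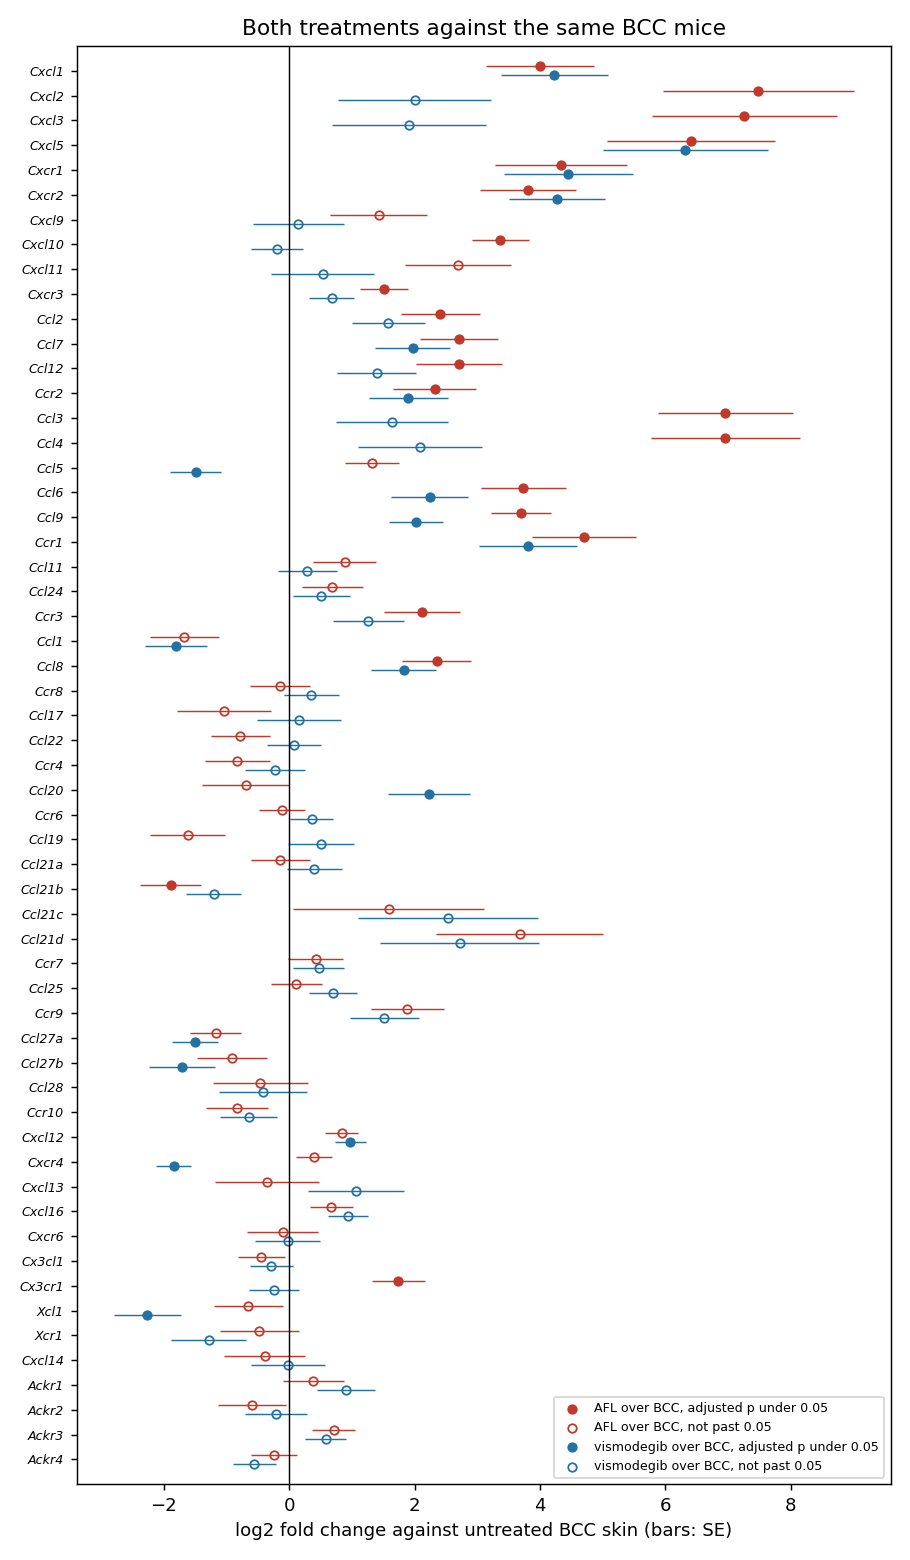
Log2 fold changes (x axis) with standard errors of 57 of the 58 members tested (rows), for AFL skin in red and vismodegib skin in blue, each against the same 4 BCC mice. Filled points passed an adjusted p of 0.05. Cxcl2, Cxcl3, Ccl3 and Ccl4 are filled in red and open in blue, while Ccl5 and Cxcr4 fell in vismodegib skin.

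Counted per kilobase of exon, Ccl8, a monocyte attractant that in mice also binds CCR8, had the highest mean level of the ligands in all 4 groups, at 997 CPM per kb in AFL, 694 in vismodegib, 195 in BCC and 163 in healthy skin. Ccl6, a myeloid chemokine known in rodents, came next in AFL skin (367 CPM per kb) and vismodegib skin (130.5), whereas the epithelial chemokine Cxcl14 came next in BCC (78.5) and healthy skin (142). Without vismodegib mouse 9 the vismodegib levels were 388 CPM per kb for Ccl8 and 61.2 for Ccl6, below the 88.5 of Cxcl14. Without BCC mouse 3 the BCC level of Cxcl14 was 44.8 CPM per kb, below Ccl21a (62.6) and Ccl27a (52.1). Among the receptors the order differed between groups. Cxcr4 was highest in AFL skin (33.8 CPM per kb) and BCC skin (25.7) and the CXCL12 scavenger Ackr3 in healthy skin (17.2). In vismodegib skin Cxcr2 (18.7) and Ackr3 (18.2) were close, and Ackr3 was the higher without vismodegib mouse 9 or 12. Over the mice, the Cxcl14 level was 53.8 to 193 CPM in AFL, 63.7 to 331 in vismodegib, 60.0 to 329 in BCC and 170.3 to 394 in healthy skin. Summed over the 38 ligands, the level was 1833 to 3693 CPM in AFL mice, 1010 to 2796 in vismodegib mice, 719 to 862 in BCC mice and 765 to 1268 in healthy mice. The 23 receptors summed to 272 to 584 CPM in AFL, 141 to 418 in vismodegib, 122 to 221 in BCC and 117 to 214 in healthy mice.

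**Figure D2:**
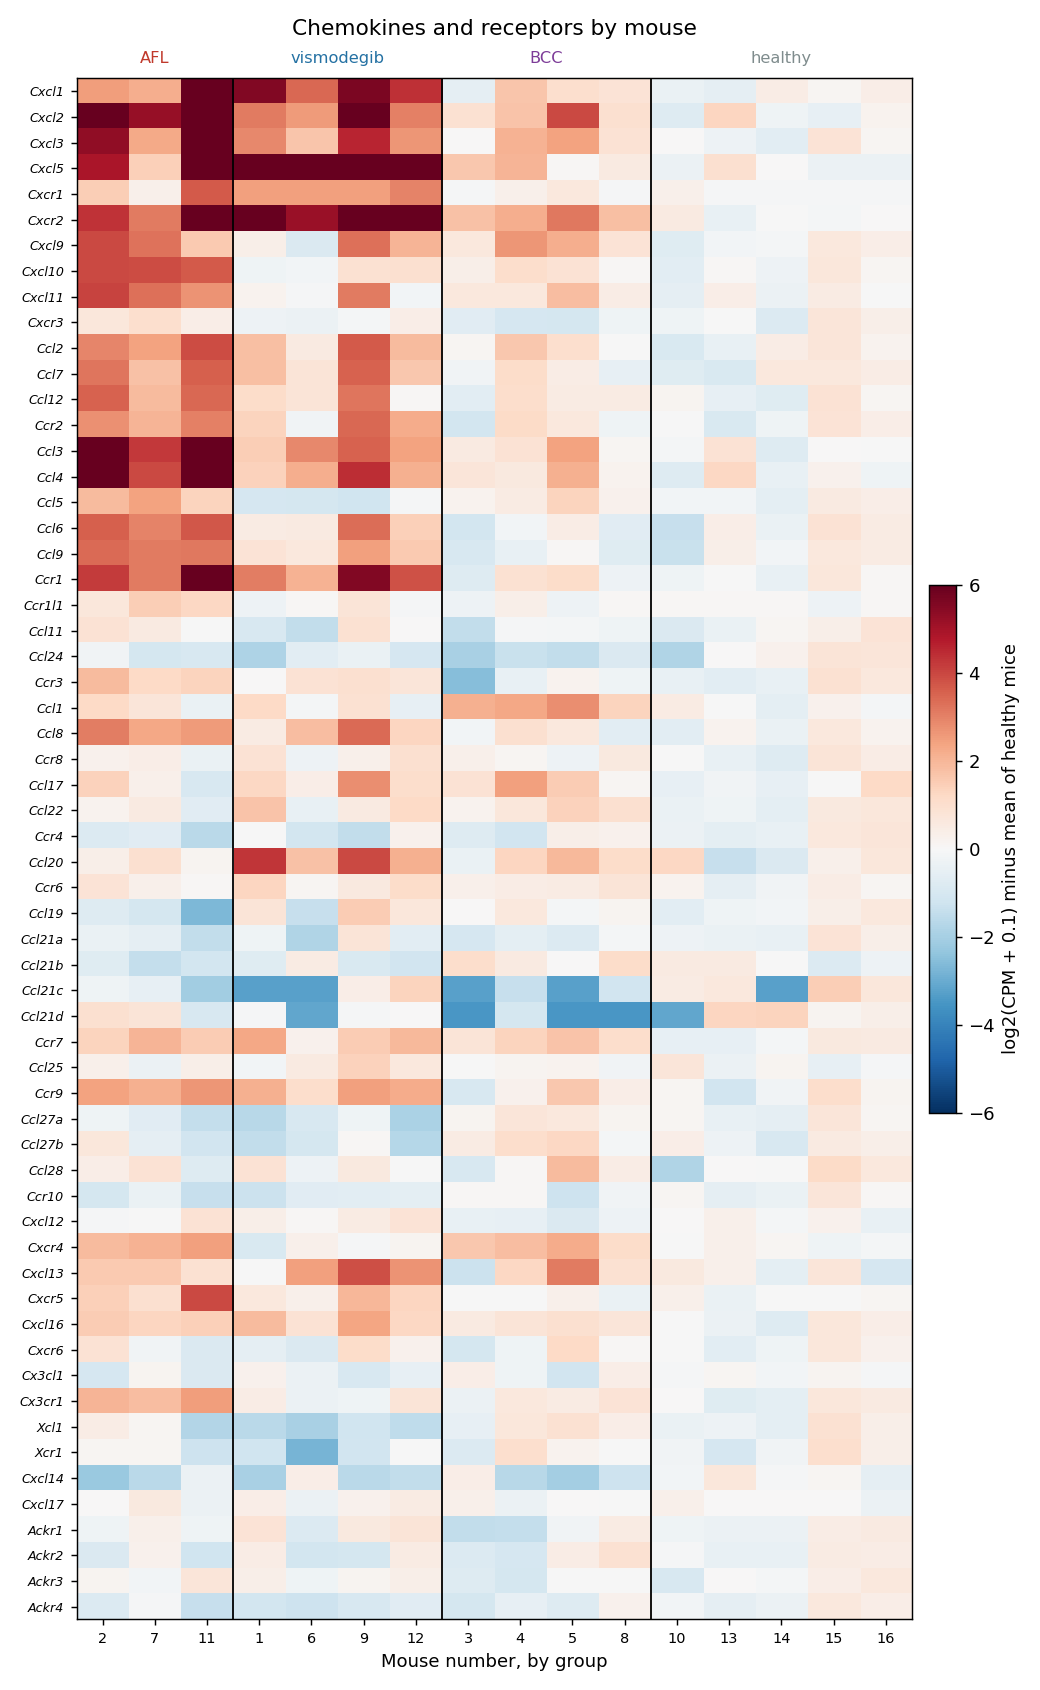
Levels of 60 of the 61 members (rows, by ligand and receptor axis) in the 16 mice (columns, AFL, vismodegib, BCC and healthy from left to right), as log2(CPM + 0.1) minus the member's mean over the healthy mice, with colours clipped at the ends of the scale. The 4 CXCR2 ligands reach the top of the scale in AFL mouse 11, and Ccl6 and Ccl9 are high in all 3 AFL mice.

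Cxcl1, Cxcl2, Cxcl3 and Cxcl5 were the CXCR2 ligands tested, with the receptors Cxcr1 and Cxcr2 that neutrophils carry. All 4 ligands and both receptors rose in AFL skin, and Cxcl1, Cxcl5 and both receptors rose in vismodegib skin. The promoters of Cxcl1, Cxcl2, Cxcl3 and Cxcl10 are printed. Of ligands with a RefSeq promoter, these are the 4 that rose in AFL skin and hold a form of the NF-kB motif. This form is GGGA and TTCC with any 2 bases between. The sequences are from RefSeq (GRCm38.p6), 250 bases before to 50 after the transcript start, at chr5:90890995-90891294 (plus strand) for Cxcl1, chr5:90903649-90903948 (plus) for Cxcl2, chr5:90785851-90786150 (plus) for Cxcl3 and chr5:92348840-92349139 (minus) for Cxcl10. Capitals mark matches on either strand to this motif and, in Cxcl10 upstream of it, to the interferon response motif, GAAA and GAAA with any 2 bases between.
Cxcl1: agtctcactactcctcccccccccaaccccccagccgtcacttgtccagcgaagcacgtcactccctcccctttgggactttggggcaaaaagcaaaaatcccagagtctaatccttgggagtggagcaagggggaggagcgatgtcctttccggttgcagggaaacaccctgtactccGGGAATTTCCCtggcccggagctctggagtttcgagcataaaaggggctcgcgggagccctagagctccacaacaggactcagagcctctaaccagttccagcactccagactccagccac
Cxcl2: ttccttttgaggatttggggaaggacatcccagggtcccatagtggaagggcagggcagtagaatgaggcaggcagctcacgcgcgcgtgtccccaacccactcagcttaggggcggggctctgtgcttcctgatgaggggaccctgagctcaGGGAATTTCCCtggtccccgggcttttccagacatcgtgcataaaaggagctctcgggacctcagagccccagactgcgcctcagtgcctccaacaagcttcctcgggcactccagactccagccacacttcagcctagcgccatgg
Cxcl3: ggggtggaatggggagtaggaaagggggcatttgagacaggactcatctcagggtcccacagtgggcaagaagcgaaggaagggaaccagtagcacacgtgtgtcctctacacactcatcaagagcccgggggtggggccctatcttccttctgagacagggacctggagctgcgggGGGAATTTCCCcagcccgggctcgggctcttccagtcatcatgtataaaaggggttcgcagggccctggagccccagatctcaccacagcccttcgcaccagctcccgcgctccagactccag
Cxcl10: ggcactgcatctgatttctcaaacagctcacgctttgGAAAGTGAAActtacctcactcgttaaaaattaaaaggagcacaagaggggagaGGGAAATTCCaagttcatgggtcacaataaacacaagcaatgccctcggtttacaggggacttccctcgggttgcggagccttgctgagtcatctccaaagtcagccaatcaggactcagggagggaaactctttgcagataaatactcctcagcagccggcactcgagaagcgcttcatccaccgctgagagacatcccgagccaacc
In Cxcl1, Cxcl2 and Cxcl3 the run in capitals is the same, GGGAATTTCCC, a pair of overlapping matches on opposite strands, and it starts 71, 97 and 73 bases before the transcript start. In Cxcl10 the NF-kB letters start 159 bases and the interferon letters 213 bases before it. Of the 61 members, 46 had a promoter in the RefSeq table, while Ccl2, Ccl4, Ccl7 and Cxcl5, which rose in AFL skin, had none. The NF-kB letters, on both strands, were in 6 of these 46 (13.0%; the other 2 were Ccl1 and Ccr3) and in 387 of 27025 promoters (1.43%). Among members that rose, 5 of 16 with a promoter held them in AFL skin (31.2%) and 1 of 10 in vismodegib skin. This form was chosen after a looser one, GGG and CC with any 5 bases between, proved to be in 50.4% of all promoters and 26 of the 46 members. The interferon letters were in 3 of 46 members (Cxcl10, Cxcl14 and Ccl19) and in 3.49% of all promoters. A match describes these letters and does not show that a factor binds.

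Cxcl2, a ligand that macrophages and neutrophils release early in inflammation, had 40.9, 8.08 and 567 CPM in the AFL mice, 1.81, 1.19, 14.2 and 1.67 in the vismodegib mice, 0.319, 0.617, 3.36 and 0.327 in the BCC mice and 0.0296, 0.437, 0.0828, 0.0579 and 0.159 in the healthy mice. Every AFL mouse lay above every BCC mouse, but mouse 11 was far above mice 2 and 7 (log2 fold change 7.48, SE 1.52, adjusted p = 0.00692 in AFL against BCC). Without mouse 11 the call held at 4.36. Cxcl3, its close relative, had 6.15, 0.671 and 171 CPM in AFL, 1.06, 0.396, 3.66 and 0.880 in vismodegib, 0.0579, 0.558, 0.746 and 0.191 in BCC and 0.0591, 0.0292, 0, 0.174 and 0.0723 in healthy mice. AFL mouse 7 lay within the BCC range, so the AFL and BCC groups overlapped (7.25, SE 1.48, adjusted p = 0.00601). The call for Cxcl3 ended without AFL mouse 11 (3.08) and in limma voom (5.42). In AFL skin against vismodegib skin Cxcl2 (5.48, SE 1.39, adjusted p = 0.0249) and Cxcl3 (5.35, SE 1.35, adjusted p = 0.0225) were both higher, although the vismodegib and AFL mice overlapped. The Cxcl2 call in that direct comparison ended without any one of AFL mouse 11 (2.42), vismodegib mouse 1 (5.21), vismodegib mouse 6 (5.16) and vismodegib mouse 12 (5.19), and that of Cxcl3 without any one of AFL mouse 11 (1.23), vismodegib mouse 1 (5.22), vismodegib mouse 6 (5.03) and vismodegib mouse 12 (5.15) and in limma voom (3.56).

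Cxcl1, a keratinocyte and stromal ligand of CXCR2, had 3.17, 2.44 and 41.0 CPM in AFL mice, 26.8, 6.12, 28.4 and 11.8 in vismodegib mice, 0.290, 1.68, 1.03 and 0.899 in BCC mice and 0.325, 0.292, 0.662, 0.521 and 0.651 in healthy mice. All vismodegib mice were well above all BCC mice (log2 fold change 4.23, SE 0.85, adjusted p = 0.0042), and this call held under every alternative. In AFL skin all 3 mice were also above the BCC mice, mouse 11 by far the most (4.00, SE 0.87, adjusted p = 0.00846), and the call ended without AFL mouse 11 (1.49) and in limma voom (3.30). Cxcl5, an epithelial ligand, had 3.62, 0.244 and 48.8 CPM in AFL mice, 9.29, 10.7, 30.5 and 15.6 in vismodegib mice and 0.290, 0.411, 0.0311 and 0.0817 in BCC mice, and at most 0.146 CPM in a healthy mouse. Its rise in vismodegib skin appeared in all 4 mice (6.32, SE 1.32, adjusted p = 0.00533) and held under every alternative. In AFL skin Cxcl5 had an overlapping range (6.41, SE 1.34, adjusted p = 0.00707) and lost its call without AFL mouse 11 (3.17) and in limma voom (4.84). With all mice, AFL against vismodegib skin did not pass for Cxcl1 (-0.23, adjusted p = 0.882) or Cxcr2 (-0.46, adjusted p = 0.715). Without AFL mouse 11 both passed, the remaining AFL mice lying below every vismodegib mouse. Xcl1 also passed then, with those AFL mice above every vismodegib mouse.

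Cxcr2, the main neutrophil receptor for these ligands, had 11.9, 5.21 and 107 CPM in AFL mice, 54.8, 21.7, 73.5 and 78.2 in vismodegib mice, 1.91, 2.62, 5.29 and 1.99 in BCC mice and 0.769, 0.350, 0.497, 0.463 and 0.506 in healthy mice. No vismodegib mouse was near the BCC range, whereas AFL mouse 7 stood just inside it. Log2 fold changes against BCC skin were 4.27, SE 0.76, adjusted p = 0.00212 in vismodegib skin and 3.81, SE 0.77, adjusted p = 0.0051 in AFL skin. The vismodegib call held under every alternative, and the AFL call ended without AFL mouse 11 (1.49) and in limma voom (2.98). Cxcr1, its less abundant partner, had 0.190, 0.0305 and 1.24 CPM in AFL mice and 0.478, 0.487, 0.478 and 0.739 in vismodegib mice, against 3 counts over all BCC mice and 1 count over all healthy mice. As a ratio of scaled counts to BCC skin it was 30.9 in AFL skin (95% counting interval 10.2 to 153) and 27.2 in vismodegib skin (9.02 to 135). Adjusted p-values were 0.0174 for AFL and 0.00975 for vismodegib, and the AFL call for Cxcr1 ended without any one of AFL mouse 11 (2.11), BCC mouse 3 (3.97) and BCC mouse 8 (3.94) and in limma voom (3.19). These ligands and receptors are plotted beside Csf3r, the G-CSF receptor of neutrophils, which had 43.0, 30.2 and 187 CPM in AFL mice, 45.6, 34.7, 70.7 and 137 in vismodegib mice and 2.66, 3.79, 2.95 and 3.05 in BCC mice.

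Neutrophil markers were counted beside these members. Of 7 neutrophil markers tested, 3 rose in AFL skin and 7 in vismodegib skin against BCC skin. The 8 listed summed to 91.2 to 2280 CPM in AFL, 2401 to 49296 in vismodegib, 23.6 to 133 in BCC and 7.29 to 21.4 in healthy mice. The lowest AFL sum lay inside the BCC range. The sum was higher in every vismodegib mouse than in any AFL mouse, but Csf3r and Ly6g overlapped between these groups. Cxcl2 and Cxcl3 were higher in AFL than in vismodegib skin, with overlapping mice and calls that ended without AFL mouse 11. Ly6g, the defining surface marker, was at 0 in all BCC and healthy mice and at 0.0305 to 1.86 CPM in AFL and 0.152 to 1.70 CPM in vismodegib mice. S100a8 and S100a9, part of the sum, are also made by stressed keratinocytes. In whole skin, fewer cells of a type and less RNA per cell cannot be told apart, here and for all members below, and the part of the neutrophil markers in these results was not tested.

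**Figure D3:**
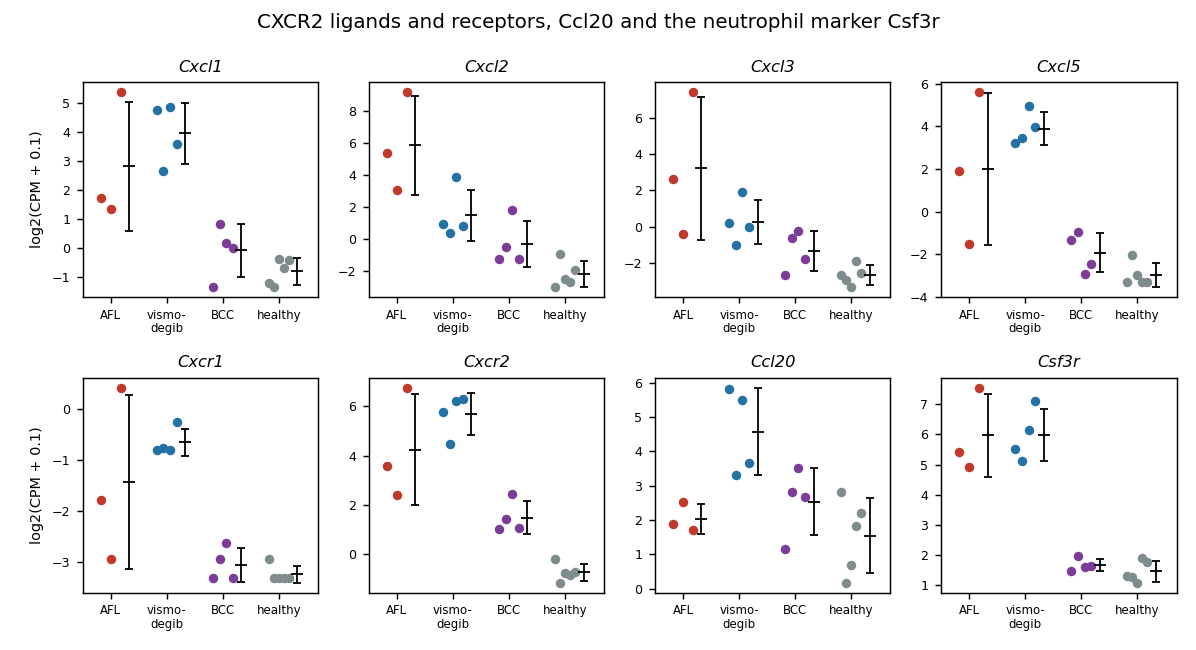
Levels per mouse, as log2(CPM + 0.1), of the CXCR2 ligands, their receptors, Ccl20 and the neutrophil gene Csf3r in AFL, vismodegib, BCC and healthy skin, with bars for the mean ± SD on that scale. Cxcr2, Cxcl1 and Cxcl5 are above all BCC mice in all 4 vismodegib mice, while Cxcl2 and Cxcl3 are highest in AFL mouse 11.

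Of the CC ligands Ccl3, Ccl4, Ccl5, Ccl6 and Ccl9, which attract monocytes, macrophages and activated T cells, 4 of 5 rose in AFL skin, whereas in vismodegib skin 2 of 5 rose and 1 fell. Ccl9, a CCR1 ligand known in rodents, had 357, 292 and 296 CPM in AFL mice, 58.9, 51.8, 184 and 99.1 in vismodegib mice, 17.0, 24.2, 35.5 and 20.2 in BCC mice and 13.2, 43.2, 29.5, 52.0 and 46.9 in healthy mice. The AFL mice were close together, above every vismodegib mouse, and these in turn lay above every BCC mouse. Ccl9 rose in AFL skin (log2 fold change 3.699, SE 0.48, adjusted p = 0.000148) and in vismodegib skin (2.02, SE 0.43, adjusted p = 0.00597), and both calls held under every alternative. AFL skin was also higher than vismodegib skin (1.68, SE 0.45, adjusted p = 0.0288), a call that ended without any one of AFL mice 2, 7 and 11 and vismodegib mice 1, 6 and 12 (range 1.46 to 1.74). Ccl6 had 723, 462 and 794 CPM in AFL mice, 82.2, 85.1, 608 and 162 in vismodegib mice and 27.7, 52.6, 81.3 and 36.5 in BCC mice. Its rise in AFL skin (3.73, SE 0.68, adjusted p = 0.0023) held under every alternative. Vismodegib mouse 9 was far above the rest of its group, and the rise there (2.24, SE 0.62, adjusted p = 0.0228) ended without any one of vismodegib mouse 9 (1.18), BCC mouse 4 (2.27) and BCC mouse 8 (2.04).

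Ccl3, also called MIP-1 alpha, had 17.5, 4.88 and 179 CPM in AFL mice, 0.649, 1.83, 3.03 and 1.30 in vismodegib mice, 0.290, 0.382, 1.31 and 0.191 in BCC mice and 0.148, 0.379, 0.0552, 0.174 and 0.159 in healthy mice. All AFL mice were above all others, over a wide range (log2 fold change 6.96, SE 1.08, adjusted p = 0.000659 against BCC). In the direct comparison Ccl3 was higher in AFL than in vismodegib skin (5.32, SE 1.00, adjusted p = 0.00367). Without AFL mouse 11 the values were 4.32 against BCC skin and 2.73 against vismodegib skin, and both calls held. Ccl4, its neighbour on chromosome 11, had 23.8, 4.91 and 197 CPM in AFL mice, 0.751, 1.37, 7.01 and 1.35 in vismodegib mice and 0.434, 0.382, 1.34 and 0.272 in BCC mice. All AFL mice were above all BCC mice (6.96, SE 1.19, adjusted p = 0.00165), and the value was 4.51 without mouse 11. Against vismodegib skin Ccl4 was higher (4.87, SE 1.08, adjusted p = 0.0107), and that call ended without AFL mouse 11 (2.48). In vismodegib skin neither Ccl3 (1.64, adjusted p = 0.218) nor Ccl4 (2.08, adjusted p = 0.157) passed against BCC skin. With days since induction as a covariate both passed there, and both rose against healthy skin, as given below.

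Ccl5, a ligand that T and NK cells store, moved the other way in vismodegib skin. It had 5.26, 7.56 and 3.55 CPM in AFL mice, 0.615, 0.609, 0.531 and 1.29 in vismodegib mice, 1.59, 1.94, 3.61 and 1.61 in BCC mice and 1.18, 1.20, 0.856, 2.03 and 1.79 in healthy mice. The vismodegib mice were all below the BCC mice, and the AFL mice were all above the vismodegib mice. Ccl5 fell in vismodegib skin (-1.49, SE 0.41, adjusted p = 0.0231), a call that ended without any one of vismodegib mouse 1 (-1.40), vismodegib mouse 9 (-1.34) and BCC mouse 5 (-1.17) and with 1 library per mouse (-1.50). It was higher in AFL than in vismodegib skin (2.81, SE 0.44, adjusted p = 0.00108) under every alternative, and in AFL against BCC skin it did not pass (1.32, adjusted p = 0.074). The pair of libraries of AFL mouse 11 gave 1.19 and 6.09 CPM for Ccl5. Ccr1, a receptor of monocytes and neutrophils, had 37.9, 18.1 and 155 CPM in AFL mice, 17.0, 8.77, 96.7 and 28.9 in vismodegib mice, 1.10, 3.79, 4.35 and 1.58 in BCC mice and 1.63, 1.95, 1.41, 3.21 and 2.04 in healthy mice. Both treated groups lay wholly above BCC skin, by 4.70, SE 0.83, adjusted p = 0.00189 in AFL and 3.80, SE 0.78, adjusted p = 0.00466 in vismodegib skin, under every alternative.

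The CCR2 axis draws monocytes out of the blood, and Ccl2, Ccl7 and Ccl12 are its ligands. Ccl7 had 51.5, 18.7 and 65.6 CPM in AFL mice, 19.1, 9.40, 63.4 and 16.7 in vismodegib mice, 4.72, 11.6, 7.56 and 3.79 in BCC mice and 3.19, 2.83, 8.39, 8.42 and 7.34 in healthy mice. No AFL mouse was as low as a BCC mouse, whereas vismodegib mouse 6 was inside the BCC range. Ccl7 rose in AFL skin (2.71, SE 0.63, adjusted p = 0.0129) and in vismodegib skin (1.97, SE 0.59, adjusted p = 0.033). The AFL call ended without AFL mouse 11 (2.29), and the vismodegib call without any one of vismodegib mouse 9 (1.14), BCC mouse 3 (1.82), BCC mouse 5 (2.00) and BCC mouse 8 (1.69), with library size alone as the scaling (1.39) and in limma voom (1.64). Ccl12, a mouse ligand of CCR2, had 17.9, 5.79 and 16.8 CPM in AFL mice, 3.28, 2.53, 14.5 and 1.56 in vismodegib mice and 0.898, 3.15, 2.11 and 2.07 in BCC mice. No AFL mouse overlapped BCC skin, and its rise (2.71, SE 0.68, adjusted p = 0.0211) ended without any one of AFL mouse 2 (2.47), AFL mouse 11 (2.48), BCC mouse 3 (2.46), BCC mouse 5 (2.69) and BCC mouse 8 (2.68). Ccl2 had 43.0, 29.6 and 85.3 CPM in AFL mice, 19.7, 7.94, 70.7 and 20.7 in vismodegib mice and 6.05, 17.1, 11.1 and 5.37 in BCC mice. Every AFL mouse was above every BCC mouse, and Ccl2 rose there (2.41, SE 0.63, adjusted p = 0.0264), a call that ended without any one of AFL mouse 11 (1.83), BCC mouse 3 (2.23), BCC mouse 5 (2.43) and BCC mouse 8 (2.18). In vismodegib skin it did not pass against BCC skin (1.58, adjusted p = 0.074). It rose there against healthy skin (2.31, adjusted p = 0.0162), a call that ended without vismodegib mouse 9 (1.42). Ccr2 itself had 50.7, 31.2 and 62.2 CPM in AFL mice, 19.02, 6.57, 82.8 and 35.6 in vismodegib mice and 3.48, 16.9, 11.8 and 6.40 in BCC mice. Vismodegib mouse 9 was the highest of all mice, and mouse 6 was inside the BCC range. The AFL call (2.32, SE 0.66, adjusted p = 0.0427) ended without any one of AFL mice 2, 7 and 11, vismodegib mouse 12, BCC mice 3, 5 and 8 and healthy mice 10, 14 and 16 (range 2.04 to 2.55), with 1 library per mouse (2.18) and with days since induction as a covariate (3.42). In vismodegib skin (1.90, SE 0.63, adjusted p = 0.0481) the call ended without any one of AFL mice 2, 7 and 11, vismodegib mice 9 and 12, BCC mice 3, 5 and 8 and healthy mice 10, 13, 14, 15 and 16 (range 1.11 to 2.00), with RLE scaling (1.89), with library size alone as the scaling (1.32), with no low-count filter (1.88), with a filter of 1 CPM in 3 mice (1.84), in limma voom (1.54) and with days since induction as a covariate (2.28), and the value was 1.11 without vismodegib mouse 9.

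Ccl8 had 669.6, 393 and 467 CPM in AFL mice, 110.3, 288, 823 and 196 in vismodegib mice, 71.3, 154, 124 and 50.3 in BCC mice and 51.6, 90.3, 59.1, 123 and 91.8 in healthy mice. The AFL mice all lay above the BCC mice (log2 fold change 2.35, SE 0.55, adjusted p = 0.0138), and the call held under every alternative. Vismodegib mouse 1 was inside the BCC range and the other 3 were above it (1.83, SE 0.52, adjusted p = 0.0265), and the call ended without any one of vismodegib mouse 9 (1.02), BCC mouse 3 (1.70) and BCC mouse 8 (1.54) and with library size alone as the scaling (1.26). Ccr8, which in mice binds CCL8 and CCL1, was at 0.450 to 0.854 CPM in AFL, 0.487 to 1.34 in vismodegib and 0.497 to 1.01 in BCC mice and passed in none of the 6 comparisons. Cx3cr1, the fractalkine receptor of tissue macrophages and patrolling monocytes, had 7.93, 6.80 and 11.0 CPM in AFL mice, 2.49, 1.40, 1.54 and 3.19 in vismodegib mice, 1.42, 2.91, 2.58 and 3.35 in BCC mice and 1.89, 1.08, 1.19, 3.04 and 2.73 in healthy mice. All AFL mice were above all others. It rose in AFL skin against BCC skin (1.74, SE 0.42, adjusted p = 0.0175), a call that ended without AFL mouse 11 (1.49), with library size alone as the scaling (1.59) and with days since induction as a covariate (1.81). It was higher in AFL than in vismodegib skin under every alternative (1.98, SE 0.43, adjusted p = 0.00871). Its ligand Cx3cl1 was at 8.50 to 19.2 CPM in AFL, 8.82 to 20.6 in vismodegib and 7.71 to 22.7 in BCC mice and passed in none of the comparisons.

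Macrophage and monocyte markers were counted beside these members. All 8 rose in AFL skin and 5 of 8 in vismodegib skin against BCC skin, and 5 of 8 were higher in AFL than in vismodegib skin. Their sum was 2765 to 3587 CPM in AFL, 490 to 1973 in vismodegib, 256 to 533 in BCC and 335 to 933 in healthy mice, with none of the 8 at 0 throughout a group. Cd68, a lysosomal protein of macrophages, had 318, 361 and 313 CPM in AFL mice, 59.6, 45.6, 67.4 and 76.5 in vismodegib mice and 25.0, 29.3, 26.6 and 34.4 in BCC mice. Vismodegib mouse 9, highest in its group for Ccl6, Ccl8 and Ccr1, had 1973 CPM of these markers, against 490 to 919 in the other vismodegib mice. Their part in the results was not tested.

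**Figure D4:**
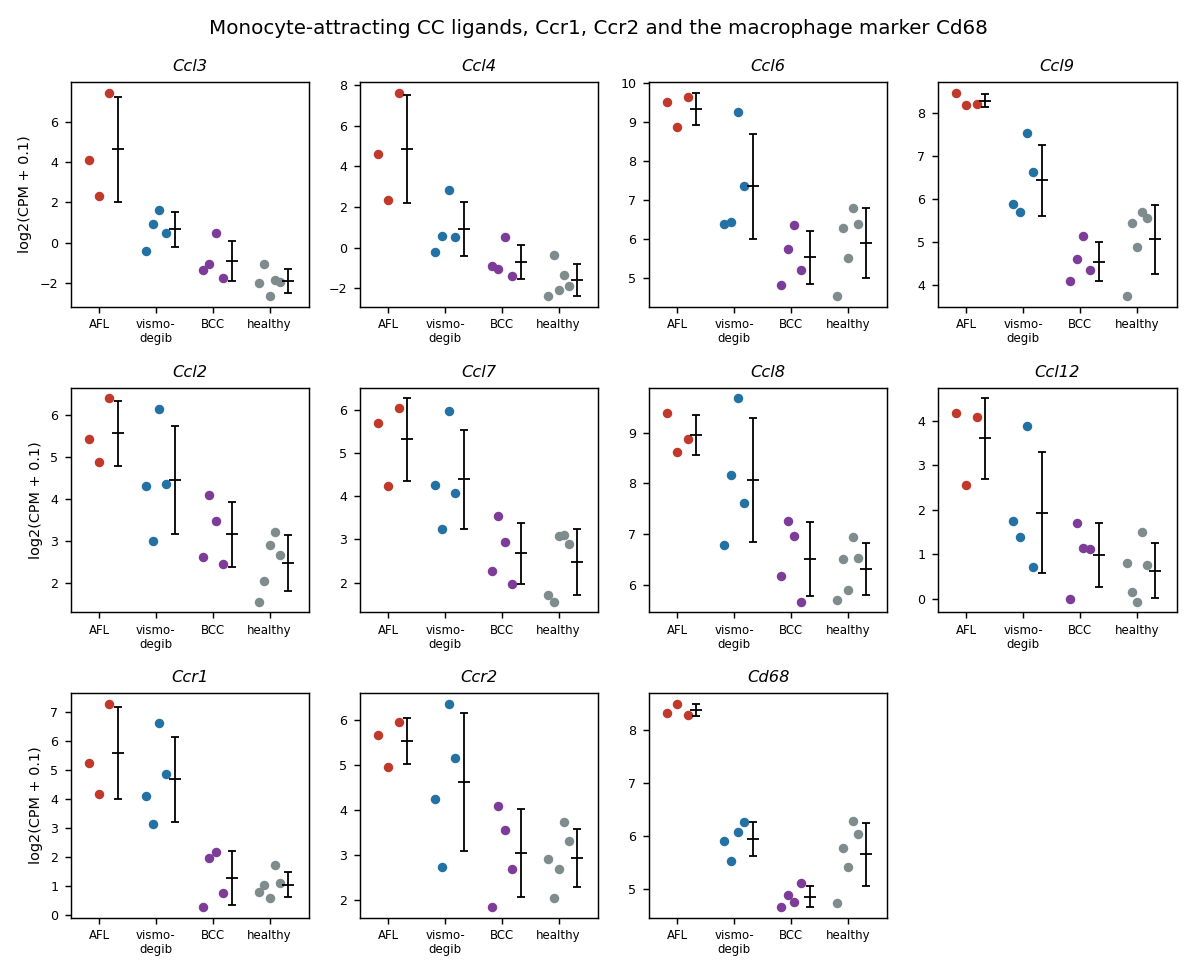
Levels per mouse, as log2(CPM + 0.1), of monocyte-attracting CC ligands, the receptors Ccr1 and Ccr2 and the macrophage gene Cd68 in AFL, vismodegib, BCC and healthy skin, with bars for the mean ± SD on that scale. The 3 AFL mice lie above all BCC mice in every panel, and in Ccl6, Ccl7 and Ccl8 vismodegib mouse 9 stands near the AFL mice.

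The CXCR3 axis carries the interferon-induced ligands. Cxcl10 had 8.69, 8.51 and 7.01 CPM in AFL mice, 0.376, 0.396, 0.956 and 0.990 in vismodegib mice, 0.608, 1.09, 0.933 and 0.490 in BCC mice and 0.266, 0.496, 0.359, 0.810 and 0.520 in healthy mice. The AFL mice agreed closely and no other mouse was near them. It rose against BCC skin (log2 fold change 3.37, SE 0.45, adjusted p = 0.0002) and was higher than in vismodegib skin (3.56, SE 0.46, adjusted p = 0.000295), both under every alternative. The libraries of AFL mouse 11 gave 3.07 and 11.3 CPM for Cxcl10, both above every mouse of the other groups. Cxcl9 had 38.3, 23.6 and 7.07 CPM in AFL mice, 3.01, 1.25, 23.8 and 9.89 in vismodegib mice and 3.74, 15.2, 11.1 and 4.17 in BCC mice. These groups overlapped, and Cxcl9 passed neither in AFL (1.43, adjusted p = 0.316) nor in vismodegib skin (0.15, adjusted p = 0.916) against BCC skin. Cxcl11 had 3.71, 2.16 and 1.40 CPM in AFL mice, 0.171, 0.122, 1.91 and 0.110 in vismodegib mice and 0.261, 0.265, 0.746 and 0.218 in BCC mice. All AFL mice were above all BCC mice, but the value did not pass (2.69, adjusted p = 0.0651). Against healthy skin Cxcl11 rose in AFL skin (4.07, adjusted p = 0.00414) under every alternative. Cxcl9 rose there too (3.21, adjusted p = 0.0109), a call that ended without AFL mouse 2 (2.61). The libraries of AFL mouse 11 gave 0.502 and 2.36 CPM for Cxcl11, the first inside the BCC range, and 3.29 and 11.2 CPM for Cxcl9. Cxcr3, the receptor on T and NK cells, had 3.74, 4.73 and 3.07 CPM in AFL mice, 1.81, 1.73, 2.07 and 3.00 in vismodegib mice, 1.39, 1.09, 1.06 and 1.85 in BCC mice and 1.89, 2.22, 1.24, 3.88 and 2.93 in healthy mice. It rose in AFL against BCC skin (1.51, SE 0.38, adjusted p = 0.021), and the call ended without any one of AFL mouse 7 (1.33), BCC mouse 4 (1.42) and BCC mouse 5 (1.38), with library size alone as the scaling (1.37) and with days since induction as a covariate (1.09). All AFL mice were above all BCC and vismodegib mice, but they overlapped healthy mice, and AFL against healthy skin did not pass (0.66, adjusted p = 0.261).

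T cells and NK cells carry CXCR3. In edgeR's test 0 of 8 T cell markers passed in AFL or vismodegib against BCC skin, and at an unadjusted p under 0.05 only Cd4 did in AFL and 0 in vismodegib skin. Their sums were 28.1 to 50.3 CPM in AFL, 25.4 to 71.2 in vismodegib, 41.0 to 65.8 in BCC and 34.9 to 71.5 in healthy mice. Of 4 NK cell markers tested, 1 rose in AFL skin and 0 in vismodegib skin, with sums of 2.67 to 7.01 CPM in AFL, 0.761 to 5.04 in vismodegib, 0.695 to 5.10 in BCC and 1.45 to 3.27 in healthy mice. The 1 that rose was Ncr1, an NK cell receptor, at 2.09, 1.92 and 0.512 CPM in AFL mice and 0.0579, 0.176, 0.155 and 0.218 in BCC mice, a call that ended with days since induction as a covariate. Klra4 and Klra8 were at 0 in all vismodegib and BCC mice, and Klra8 also in all healthy mice. The part of these markers in the Cxcr3 result was not tested.

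Cxcr4, the receptor of CXCL12 on leukocytes and some epithelial and vessel cells, was high in AFL and BCC skin and low in vismodegib and healthy skin. It had 51.8, 57.3 and 74.5 CPM in AFL mice, 7.10, 16.7, 12.7 and 15.3 in vismodegib mice, 42.2, 49.0, 64.9 and 29.7 in BCC mice and 13.5, 16.6, 14.6, 11.2 and 12.7 in healthy mice. AFL and BCC mice overlapped in a high range, vismodegib and healthy mice overlapped in a low one, and no mouse of the first pair of groups was as low as any of the second. Cxcr4 fell in vismodegib against BCC skin (log2 fold change -1.84, SE 0.28, adjusted p = 0.000767) and was higher in AFL than in vismodegib skin (2.24, SE 0.29, adjusted p = 0.000307), under every alternative. In AFL against BCC skin it did not pass (0.40, adjusted p = 0.481), and in vismodegib against healthy skin it did not pass either (-0.08, adjusted p = 0.849). Its ligand Cxcl12 had 174, 175 and 329.7 CPM in AFL mice, 229, 191, 254 and 318 in vismodegib mice, 132, 129.9, 98.2 and 146 in BCC mice and 182, 221, 165, 214 and 133 in healthy mice. Every vismodegib and AFL mouse was above every BCC mouse. The rise passed in vismodegib skin (0.97, SE 0.25, adjusted p = 0.0161), ending without BCC mouse 5 (0.85) and with library size alone as the scaling (0.62), and not in AFL skin (0.84, adjusted p = 0.0673). The scavenging receptor Ackr3, which also binds CXCL12, was at 48.1 to 89.9 CPM in AFL, 44.5 to 69.6 in vismodegib, 25.9 to 52.8 in BCC and 27.9 to 82.5 in healthy mice and passed in no comparison. The 4 markers of fibroblasts, cells that make CXCL12, summed to 9676 to 11897 CPM in AFL, 989 to 2141 in vismodegib, 3168 to 13930 in BCC and 1335 to 5546 in healthy mice. Of them 2 fell in vismodegib against BCC skin, and their part in the Cxcl12 result was not tested.

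The epithelial or lymphocyte ligands Ccl27a, Ccl27b, Xcl1 and Ccl1 fell in vismodegib against BCC skin, whereas Ccl20 rose. Ccl27a, the keratinocyte ligand of the skin-homing receptor CCR10, had 70.9, 52.8 and 31.9 CPM in AFL mice, 26.9, 43.3, 72.3 and 22.6 in vismodegib mice, 95.9, 142, 133 and 96.4 in BCC mice and 92.6, 63.1, 58.3, 143 and 92.8 in healthy mice. All AFL and vismodegib mice were below all BCC mice. It fell in vismodegib skin (-1.502, SE 0.37, adjusted p = 0.0137) under every alternative and did not pass in AFL skin (-1.17, adjusted p = 0.0966). Its near-identical copy Ccl27b, whose reads the counting may have split, averaged 1.34 ± 0.894 CPM in vismodegib (n = 4) and 4.32 ± 1.67 in BCC mice (SD, n = 4). It fell as well (-1.71, SE 0.52, adjusted p = 0.0362), a call that ended without any one of vismodegib mouse 1 (-1.54), vismodegib mouse 6 (-1.65), vismodegib mouse 12 (-1.49), BCC mouse 4 (-1.60) and BCC mouse 5 (-1.51) and with days since induction as a covariate (-1.51). Keratinocyte markers summed to 12818 to 27790 CPM in AFL, 26204 to 51668 in vismodegib, 9653 to 18649 in BCC and 8530 to 13794 in healthy mice. Of the 4, 2 rose in vismodegib against BCC skin, and their part in the Ccl27 results was not tested. Ccr10 was at 0.186 to 0.457 CPM in AFL, 0.205 to 0.393 in vismodegib and 0.218 to 0.676 in BCC mice and passed in no comparison.

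Xcl1, a ligand that NK and CD8 T cells release towards dendritic cells, had 1.87, 1.46 and 0.326 CPM in AFL mice, 0.376, 0.274, 0.531 and 0.409 in vismodegib mice, 0.927, 2.20, 2.64 and 1.83 in BCC mice and 1.01, 1.05, 0.856, 2.63 and 1.76 in healthy mice. All vismodegib mice were below all BCC mice, and Xcl1 fell there under every alternative (-2.26, SE 0.54, adjusted p = 0.0113). Its receptor Xcr1 was at 1.09 to 2.99 CPM in AFL, 0.304 to 2.63 in vismodegib and 1.48 to 5.58 in BCC mice and did not pass against BCC skin in either treatment. Ccl1, a ligand of CCR8, had 1.52, 1.04 and 0.434 CPM in AFL mice, 1.503, 0.548, 1.22 and 0.393 in vismodegib mice, 2.93, 3.35, 4.66 and 1.69 in BCC mice and 0.887, 0.583, 0.359, 0.724 and 0.549 in healthy mice. The BCC mice were above all others. Ccl1 fell in vismodegib skin (-1.80, SE 0.50, adjusted p = 0.0229), and the call ended without any one of vismodegib mouse 12 (-1.54) and BCC mouse 5 (-1.58) and with days since induction as a covariate (-2.01). It did not pass in AFL skin (-1.67, adjusted p = 0.0766), where all 3 mice were also below the BCC mice. Ccl20, the keratinocyte ligand of CCR6, had 3.58, 5.61 and 3.13 CPM in AFL mice, 56.8, 9.83, 45.5 and 12.6 in vismodegib mice, 2.14, 6.91, 11.3 and 6.24 in BCC mice and 6.89, 1.02, 1.52, 3.47 and 4.54 in healthy mice. Vismodegib mice 1 and 9 were highest, and the AFL mice were all below the vismodegib mice. Ccl20 rose in vismodegib skin (2.23, SE 0.66, adjusted p = 0.031), and the call ended without any one of vismodegib mouse 1 (1.77), vismodegib mouse 9 (2.02), BCC mouse 3 (1.94), BCC mouse 4 (2.25) and BCC mouse 8 (2.12), with library size alone as the scaling (1.74), in limma voom (1.97) and with days since induction as a covariate (1.93). It was lower in AFL than in vismodegib skin (-2.92, SE 0.76, adjusted p = 0.025), a call that ended without any one of AFL mouse 2 (-2.77), AFL mouse 7 (-3.21), AFL mouse 11 (-2.72) and vismodegib mouse 1 (-2.46). Against healthy skin Ccl20 rose in vismodegib skin (3.16, adjusted p = 0.00498) under every alternative. Ccr6 was at 0.931 to 1.62 CPM in AFL, 0.974 to 2.32 in vismodegib and 1.13 to 1.61 in BCC mice. It passed in no comparison.

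The ligands of CCR7, which guides dendritic cells and naive T cells to lymph nodes, are Ccl19 and the Ccl21 copies. The 4 Ccl21 genes are near-identical and Ccl19 carries the same counts as the predicted gene Gm2023, so reads may be split or shared between them. Ccl21b had 1.55, 0.915 and 1.15 CPM in AFL mice, 1.54, 3.74, 1.33 and 1.13 in vismodegib mice and 5.59, 3.85, 2.67 and 5.78 in BCC mice. The AFL mice were all below the BCC mice, and Ccl21b fell in AFL skin (-1.89, SE 0.49, adjusted p = 0.025), a call that ended without any one of AFL mouse 7 (-1.73), AFL mouse 11 (-1.89), BCC mouse 3 (-1.77) and BCC mouse 8 (-1.77) and with days since induction as a covariate (-1.69). Ccl21a, the most abundant copy, was at 27.2 to 57.7 CPM in AFL, 21.8 to 130.3 in vismodegib and 37.4 to 70.2 in BCC mice and passed in no comparison, nor did Ccl21c and Ccl21d. Ccl19 had 1.71, 1.37 and 0.372 CPM in AFL mice and 5.23, 1.10, 8.82 and 4.89 in vismodegib mice, with an overlap at vismodegib mouse 6. It was lower in AFL than in vismodegib skin (-2.13, SE 0.61, adjusted p = 0.04), a call that ended without any one of AFL mice 2, 7 and 11, vismodegib mice 1, 9 and 12, BCC mouse 8 and healthy mice 13, 14 and 15 (range -2.48 to -1.66), with library size alone as the scaling (-1.77), in limma voom (-2.13) and with days since induction as a covariate (-2.40).

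Ccr3, the receptor of eosinophils and basophils for eotaxins, had 4.09, 2.44 and 2.68 CPM in AFL mice, 1.02, 1.95, 2.07 and 1.74 in vismodegib mice and 0.0869, 0.705, 1.18 and 0.845 in BCC mice. Each AFL mouse was above all others, with vismodegib mouse 9 next at 2.07 CPM. Ccr3 rose in AFL against BCC skin (2.12, SE 0.60, adjusted p = 0.0414), and the call ended without any one of AFL mice 2, 7 and 11, vismodegib mouse 12, BCC mice 4 and 8 and healthy mouse 14 (range 1.87 to 2.26), with library size alone as the scaling (1.96), with 1 library per mouse (1.96) and with days since induction as a covariate (2.88). Its ligands Ccl11, at 39.0 to 72.8 CPM in AFL, 14.3 to 74.3 in vismodegib and 14.2 to 38.0 in BCC mice, and Ccl24, at 6.13 to 10.9, 3.45 to 9.77 and 3.19 to 6.89 CPM in the same groups, passed in no comparison. The 4 eosinophil markers in the file summed to at most 2.11 CPM in AFL, 1.92 in vismodegib, 0.872 in BCC and 2.24 in healthy mice, and Epx, their peroxidase gene, was at 0 in all AFL, vismodegib and healthy mice.

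**Figure D5:**
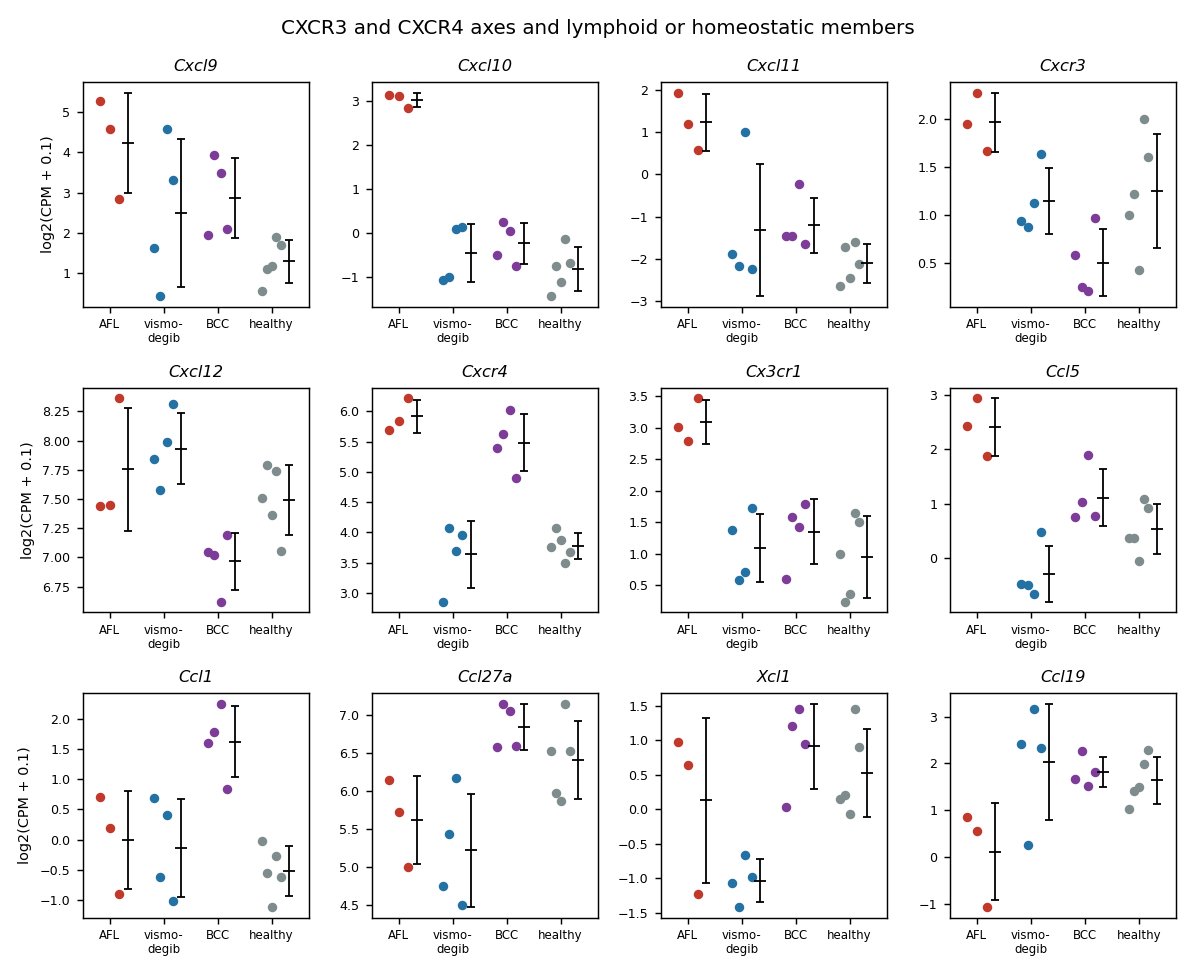
Levels per mouse, as log2(CPM + 0.1), of members of the CXCR3 and CXCR4 axes, Cx3cr1, Ccl5 and ligands of lymphoid or epithelial origin in AFL, vismodegib, BCC and healthy skin, with bars for the mean ± SD on that scale. Cxcl10 and Cx3cr1 are high in the 3 AFL mice alone, Cxcr4 is high in AFL and BCC mice, and Ccl1 is highest in BCC mice.

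In BCC skin against healthy skin, 2 of 58 members changed (3.45%), both upward, a share close to that of all genes. Over all genes, 2.82% changed, 2.66% up and 0.159% down. Cxcr4 averaged 46.4 ± 14.6 CPM in BCC mice (n = 4) and 13.7 ± 2.04 in healthy mice (SD, n = 5; log2 fold change 1.76, SE 0.26, adjusted p = 0.00101). Ccl1 averaged 3.16 ± 1.23 CPM in BCC mice and 0.620 ± 0.198 in healthy mice (2.34, SE 0.47, adjusted p = 0.00912). No BCC mouse overlapped a healthy mouse in either gene, and both calls held under every alternative. In 5 members (8.62%) every BCC mouse lay above every healthy mouse (5.18% of all genes), and in 0 every one lay below (1.47% of all genes). Next in order were Cxcr2, higher in every BCC mouse than in any healthy mouse (2.51, adjusted p = 0.0693), and Ccl24 (-1.62, adjusted p = 0.0693), neither of which passed. DESeq2 called 6 members, adding Ccl21d, Ccl24, Ccr7 and Cxcr2, and 5.78% of all genes. The median log2 fold change of the members was 0.38, against -0.00 for all genes.

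Against healthy skin, 26 members rose in AFL skin and 0 fell, where 9.24% of all genes changed, 7.95% up and 1.29% down. In vismodegib skin 20 rose and 2 fell, where 11.6% of all genes changed, 7.57% up and 4.07% down. Medians were 0.67 in AFL and 0.62 in vismodegib skin over the members, and 0.01 and 0.02 over all genes. Every AFL mouse lay above every healthy mouse in 28 of 58 members (48.3%, against 14.7% of all genes) and below in 2 (3.45%, against 11.0%). Every vismodegib mouse lay above in 13 (22.4%, against 9.33% of all genes) and below in 3 (5.17%, against 6.78%). With library size alone as the scaling, 12 members rose and 4 fell in vismodegib skin, where 9.42% of all genes changed. Without vismodegib mouse 9, 11 members changed and 6.04% of all genes, and without vismodegib mouse 6, 27 members and 22.2% of all genes. In AFL skin Cxcl10 (4.03, SE 0.43, adjusted p = 1.85e-05), Ccl3 (8.51, SE 1.06, adjusted p = 7.04e-05), Cxcr2 (6.32, SE 0.79, adjusted p = 7.41e-05), Cxcr4 (2.16, SE 0.27, adjusted p = 8.15e-05) and Ccl9 (3.09, SE 0.43, adjusted p = 0.000172) were among those with the smallest p-values. These 5 calls held under every alternative, and Cxcr2 was at 4.00 without AFL mouse 11. Without that mouse Cxcl1 was at 2.46 (4.97 with it), Cxcl5 at 5.77 (9.02) and Cxcl3 at 5.55 (9.72), and these calls held. In vismodegib skin the smallest p-values were those of Cxcr2 (6.78, SE 0.79, adjusted p = 5.95e-05), Cxcl1 (5.20, SE 0.82, adjusted p = 0.000886), Cxcl5 (8.93, SE 1.41, adjusted p = 0.00106), Ccr1 (4.20, SE 0.73, adjusted p = 0.00178), Cxcr1 and Cxcl16 (1.61, SE 0.30, adjusted p = 0.00346), and these held as well. Cxcr1 had 1 count over the healthy mice, and its ratio of scaled counts was 124 in vismodegib skin (95% counting interval 21.6 to 4945) and 141 in AFL skin (24.6 to 5615). The AFL call of Cxcr1 ended without AFL mouse 11, where the fitted log2 fold change was 3.73 (5.97 with it). Cxcl16, the ligand of CXCR6, had 94.1, 79.9 and 86.2 CPM in AFL mice, 119, 58.5, 165 and 75.1 in vismodegib mice, 46.7, 55.4, 63.2 and 53.2 in BCC mice and 31.9, 25.5, 18.9, 52.0 and 42.9 in healthy mice. Every AFL and every vismodegib mouse was above every healthy mouse. In AFL skin Cxcl16 rose as well (1.34, adjusted p = 0.0135), a call that ended without AFL mouse 11 (1.31). Cxcl2 (4.88, adjusted p = 0.0327) and Cxcl3 (4.38, adjusted p = 0.0477) also rose in vismodegib against healthy skin. So did Ccl3 (3.19, adjusted p = 0.0327) and Ccl4 (3.25, adjusted p = 0.0423). These calls held under 18, 8, 17 and 13 of 25 alternatives, in that order. The 2 members lower in vismodegib than in healthy skin were Xcl1 (-1.89, SE 0.52, adjusted p = 0.0292) and Ackr4, a scavenger of CCR7 ligands (-1.05, SE 0.33, adjusted p = 0.0493). The Xcl1 call ended without any one of vismodegib mouse 1 (-1.87), vismodegib mouse 12 (-1.91), healthy mouse 15 (-1.57) and healthy mouse 16 (-1.81) and in limma voom (-1.78), and the Ackr4 call without any one of vismodegib mice 1, 6, 9 and 12, BCC mice 4 and 5 and healthy mice 14, 15 and 16 (range -1.19 to -0.87) and in limma voom (-0.99).

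The remaining members changed in neither treatment against BCC skin. Ccr9, the gut-homing receptor, was at 3.96 to 5.82 CPM in AFL, 1.83 to 5.10 in vismodegib and 0.377 to 2.77 in BCC mice (1.88, adjusted p = 0.0597 in AFL and 1.51, adjusted p = 0.0679 in vismodegib). Against healthy skin Ccr9 rose in AFL (2.36, adjusted p = 0.0102) and in vismodegib skin (1.99, adjusted p = 0.0233). The AFL call of Ccr9 ended without AFL mouse 11 (2.18), and the vismodegib call without any one of vismodegib mouse 9 (1.82), healthy mouse 13 (1.77), healthy mouse 14 (1.85) and healthy mouse 16 (1.99) and with library size alone as the scaling (1.66). Ccr7 was at 5.45 to 8.84 CPM in AFL, 2.496 to 11.0 in vismodegib, 3.65 to 6.96 in BCC and 1.45 to 3.15 in healthy mice and rose in both treatments against healthy skin (1.63, adjusted p = 0.0185 in AFL and 1.67, adjusted p = 0.0132 in vismodegib). Its AFL call ended without any one of AFL mouse 7 (1.40), AFL mouse 11 (1.66), healthy mouse 10 (1.49) and healthy mouse 13 (1.51). Cxcl13, the B cell attractant, was at 3.55 to 5.74 CPM in AFL, 1.84 to 28.1 in vismodegib, 0.695 to 16.7 in BCC and 0.882 to 3.13 in healthy mice. It rose in vismodegib against healthy skin (2.69, adjusted p = 0.0308), a call that ended without any one of vismodegib mouse 9 (2.03), healthy mouse 13 (2.74), healthy mouse 14 (2.50), healthy mouse 15 (2.89) and healthy mouse 16 (2.49), with library size alone as the scaling (2.26) and in limma voom (2.35). The CCR4 ligands Ccl17 and Ccl22 had 0.264 to 1.78 and 9.62 to 22.9 CPM in AFL, 0.852 to 4.83 and 11.6 to 50.8 in vismodegib and 0.681 to 3.82 and 18.5 to 40.5 in BCC mice. Ccr4, Cxcr6, Cxcl14, Ccl25, Ccl28, Ackr1 and Ackr2 passed in no comparison. The low-count filter left out 3 members: Ccr1l1 (35 counts over all libraries), Cxcl17 (21) and Cxcr5 (174), the B cell receptor for CXCL13, which reached 1.91 CPM in AFL mouse 11 and at most 0.425 CPM elsewhere.

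Other genes of chemokine signalling and adhesion were counted in the same comparisons. All 3 genes of the list of platelet chemokines and Ccrl2 rose against BCC skin, as did 6 of 9 other chemoattractant receptors, 8 of 22 signal relay genes and 7 of 10 adhesion genes, and none fell, where 6.10% of all genes rose and 1.65% fell. In vismodegib skin the counts were 1 of 3, 5 of 9, 5 of 22 with 1 down, and 4 of 10, where 8.03% of all genes rose and 9.00% fell. Ccrl2, an atypical receptor for chemerin, had 13.4, 21.9 and 74.6 CPM in AFL and 1.39, 1.56, 2.49 and 2.04 in BCC mice (4.29, SE 0.57, adjusted p = 0.0002). Ppbp, a platelet CXCR2 ligand, had 1.71, 0.671 and 53.6 CPM in AFL and 0.0869, 0.441, 0.155 and 0.109 in BCC mice, with mouse 11 far above the others (6.54, SE 1.28, adjusted p = 0.004). Without AFL mouse 11 the call of Ppbp ended, at 2.53 (adjusted p = 0.126). The complement receptors C3ar1, at 243, 150.0 and 238 CPM in AFL and 4.58, 9.88, 11.4 and 7.63 in BCC mice (4.65, SE 0.38, adjusted p = 9.36e-06), and C5ar1, at 72.3, 102 and 132 CPM in AFL and 4.63, 5.14, 5.94 and 9.70 in BCC mice (4.00, SE 0.41, adjusted p = 3.04e-05), did not overlap between the groups. Lyn, a kinase that acts downstream of these receptors in myeloid cells, had a log2 fold change of 2.71, SE 0.30, adjusted p = 6.92e-05, and Arrb2, the arrestin that ends their signal, 1.32, SE 0.17, adjusted p = 0.000169. The Arrb2 call ended with days since induction as a covariate (1.11). Itgb2, the integrin chain shared by leukocyte adhesion receptors, had 123, 146 and 136 CPM in AFL and 16.2, 18.2, 19.3 and 24.3 in BCC mice (2.79, SE 0.34, adjusted p = 9.5e-05).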

How the data were processed

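RNA was sequenced from skin pieces of 16 mice in 19 libraries, 3 mice having 2 libraries each. The deposited values are expected counts per gene that the authors made with RSEM and Bowtie2 on GRCm39, per the submitters' processing notes, from oligo dT selected, directional libraries, per the labels' protocols. Not given in the sources used here are tool versions, gene annotation and strand setting. Of the values, 3.42% were not whole, and all were rounded. Libraries of the same mouse were summed, so a mouse is 1 replicate. The labels give different ages for the 2 libraries of mouse 16, which were summed all the same.

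Genes were filtered with edgeR's filterByExpr (15760 of 18521 kept), scaled by TMM and tested with edgeR's quasi-likelihood test (edgeR 4.0.16 in R 4.3.3; common dispersion 0.178) in 1 fit of all 4 groups. P-values were adjusted by Benjamini-Hochberg over all genes tested, with a threshold of 0.05, for 6 comparisons. SE is the log2 fold change's standard error. Ratios for genes with 3 or fewer counts in a group carry 95% intervals that cover counting error only. By rule, full values were given for the 2 members of each axis with the smallest p among those that changed in AFL against BCC skin, the 6 such members of each other comparison, the 2 genes of each pathway list with the smallest p in AFL against BCC, and Trp53 and Ptch1. Other members, which are accounted for apart from 1, and single marker genes were named after their values were seen. Members and lists were chosen with earlier results of these data known. The code was tested on simulated data. Sequences are RefSeq's for GRCm38.p6 and were matched by symbol; lengths per kilobase are from GENCODE vM21. Protein features were not analysed here, and 1 member and 1 adhesion gene, kept in all fits and counts, are not reported here.

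As alternatives, the tests were run with limma voom (limma 3.58.1) and DESeq2 1.42.0. Scaling was by library size alone or RLE. Filtering was left out or set to 1 CPM in 3 mice. The 19 libraries were used singly or the first of each mouse was taken. Further fits had a replicate block, days since induction as a covariate in induced mice, or 1 mouse left out. Levels per kilobase without a mouse, and these fits for the named pathway genes, were added after seeing the data.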

Additional observations from a re-analysis of the deposited data

Results flagged for a closer look

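Dixon's criterion was applied to the 38 members called in at least 1 comparison, not to the whole family. It set 1 mouse apart in 13 of 114 sets of values of 1 member in 1 group of 4 or 5 mice. About 1 of 20 sets would meet it if the values were independent and normally distributed. The sets hold CPM without a log scale and share their mice, so that rate cannot be set against the 13. Of the 13 sets, 8 were in vismodegib, 3 in BCC and 2 in healthy mice, and in all of them the highest mouse stood apart.

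Vismodegib mouse 9 was far above the rest of its group for Ccl12 (14.5 CPM, against 1.56 to 3.28 in the other vismodegib mice), Ccl4 (7.01 CPM, against 0.751 to 1.37), Ccl6 (608 CPM, against 82.2 to 162), Cxcl11 (1.91 CPM, against 0.110 to 0.171) and Cxcl2 (14.2 CPM, against 1.19 to 1.81). Vismodegib mouse 6 was highest for Ccl21b, at 3.74 CPM against 1.13 to 1.54 in the others. Vismodegib mouse 12 was highest for Ccl5 (1.29 CPM, against 0.531 to 0.615) and Cxcr1 (0.739 CPM, against 0.478 to 0.487).

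BCC mouse 5 was highest for Ccl4 (1.34 CPM, against 0.272 to 0.434 in the other BCC mice), Cxcl11 (0.746 CPM, against 0.218 to 0.265) and Cxcl2 (3.36 CPM, against 0.319 to 0.617). Healthy mouse 13 had 0.146 CPM of Cxcl5, against 0 to 0.0276 in the other healthy mice. Healthy mouse 10 had 0.0296 CPM of Cxcr1, which was at 0 in the other healthy mice.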

How the results depend on the processing

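No called member changed direction under any alternative. Calls kept under all of them numbered 9 of 22 in AFL against BCC skin, 9 of 19 in vismodegib against BCC, 5 of 11 in AFL against vismodegib, 2 of 2 in BCC against healthy, 20 of 26 in AFL against healthy and 9 of 22 in vismodegib against healthy. Leaving out a mouse gave 10 to 25, 12 to 22, 6 to 14, 2 to 3, 21 to 27 and 11 to 27 members in that order. The lowest counts came without AFL mouse 11 (10), vismodegib mouse 9 (12 and 11) and vismodegib mouse 1 (6). In vismodegib against healthy skin, 14 were called without healthy mouse 14 and 12 without healthy mouse 16. DESeq2 called 6 members in BCC against healthy skin. Among the pathway genes in vismodegib against BCC skin, 16 changed, and 9 with library size alone. Causes were not tested. Library size alone moved the median log2 fold change of all genes by -0.14 in AFL against BCC, -0.35 in vismodegib against BCC, 0.22 in AFL against vismodegib and -0.27 in vismodegib against healthy skin. Depth limits Cxcr1, whose ratios rest on 3 BCC counts and 1 healthy count, and the members with too few counts to be tested.

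Replicate numbers showed no sign of pairing the mice. Over 21 same-numbered pairs the correlation of deviations ran from -0.385 to 0.616, with a mean of -0.0023, and 7 were over 0.1. Over 74 differently numbered pairs it ran from -0.715 to 0.739, with a mean of -0.0033, and 31 were over 0.1. With the replicate block, 14 members were called in vismodegib against healthy skin, and 18, 14, 8, 2 and 26 in the other comparisons in the order above. Calls that ended with this block are not in the lists of ended calls given with the members. In AFL against BCC skin they were Cxcl1, Cxcl5, Cxcr1, Ccl12 and Ccr2. In vismodegib against BCC skin they were Ccl7, Ccl8, Ccl20, Ccl27b and Ccr2. Between AFL and vismodegib skin they were Cxcl3, Ccl19 and Ccl20. In vismodegib against healthy skin they were Ccl3, Ccl4, Ccl8, Ccr2, Cxcl3, Cxcl13, Xcl1 and Ackr4.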
